A study of Homo sapiens with 18 samples.

Results

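Targeting of ERH was compared with a control guide in RKO cells given IL-1β, as 3 sgERH libraries against 2 sgAAVS1 libraries, 5 of the 18 libraries of the series. The RKO line comes from a human colon carcinoma, and its RKO-iCas9 derivative, grown from 1 cell, makes Cas9 when doxycycline is added. The cells carried a guide against ERH (sgERH) or against AAVS1, a safe-harbour site used as the control (sgAAVS1), were sorted as a bulk population for guide expression, and so hold a mixture of edits and not a single knockout clone. All groups received 100 ng/mL doxycycline for 5 days. The groups compared here then had 10 ng/mL IL-1β for 4 h, and other groups were left without cytokine or had 25 ng/mL IFNγ for the same time. Members were the sgERH replicates 1, 2 and 3 and the sgAAVS1 replicates 1 and 2 under IL-1β. The study had left out sgAAVS1 replicate 3 after a principal component analysis. Transcript 3′ ends were read by QuantSeq, a method that sequences next to the poly(A) tail, and each value is a number of reads per gene.

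ERH is a small, highly conserved nuclear protein that binds to other RNA-processing proteins and takes part in splicing and in the removal of unwanted RNA. IL-1β is an inflammatory cytokine. Its receptor, made of IL1R1 and IL1RAP, recruits MYD88, the IRAK kinases and TRAF6, and this chain frees NF-κB from its inhibitors, so that NF-κB enters the nucleus and switches on chemokine genes, cytokine genes and the genes of its own inhibitors such as NFKBIA and TNFAIP3.

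The 5 libraries held 5157303 to 5406943 reads (median 5171305), of which 20.8% to 23.2% mapped to more than 1 place, and 12011 to 12694 genes had at least 10 reads. The left-out sgAAVS1 replicate 3 held 11821239. Within sgERH, replicate 2 stood apart: its root mean square deviation from its group mean was 0.305 on the log2 scale over 7280 genes, against 0.101 to 0.217 in the other 4. The gene-by-gene deviations of replicate 2 from replicates 1 and 3 had a Pearson correlation of 0.766 with those of the left-out sgAAVS1 replicate 1 without cytokine and of 0.836 with those of the left-out sgERH replicate 2 under IFNγ, over 7455 genes of libraries that share no reads, and of 0.074 with those of the left-out sgAAVS1 replicate 3 under IL-1β. Several results that move without replicate 2 are given both ways, but not all. Of the colon epithelium markers, 8 of 15 had no read, CDH1, KRT19 and KRT20 among them, while KRT8, KRT18, EPCAM and CDX2 were present. Leukocyte markers had no read at 10 of 12 genes, PTPRC among them, and a summed level of 400.0 to 407 CPM (reads scaled to the size of the library) in sgAAVS1 and 444 to 457 in sgERH that came almost wholly from CD68, a lysosomal protein. Fibroblast and endothelial markers had no read at 10 of 11 genes and at most 0.58 CPM. The labels call the replicates biological but do not say that they came from separate cultures, so p-values reflect the spread between these samples. In bulk samples, fewer cells of a kind and less RNA per cell cannot be told apart.

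ERH itself, the targeted gene (chromosome 14, 69380128 to 69398299, − strand, GRCh38, GENCODE 44), was read at 537 and 615 CPM in sgAAVS1 and at 340.0, 253 and 279 CPM in sgERH (CPM here and below are scaled by edgeR's TMM factors). All 3 sgERH libraries lay below both controls. The log2 fold change was −0.99 ± 0.12 (SE), with an edgeR quasi-likelihood adjusted p of 3.95e-07, so that the level was 1.98-fold lower and just short of the fold of 2 that a call needed. The reads came from the 3′ end and not from the place where Cas9 cuts, so they check neither the edit nor the labels. Without sgAAVS1 replicate 1 the log2 fold change was −1.09 and without sgERH replicate 1 it was −1.11, both past the threshold.

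Genes count as called, and as having risen or fallen, with an edgeR adjusted p of 0.05 or less and a level at least 2-fold apart (1 on the log2 scale). Of 13370 genes tested, 1134 were called (8.48%). More genes rose than fell, with 760 higher (5.68%) and 374 lower (2.80%) in sgERH. The median log2 fold change of all genes tested was 0.02. The call count was 394 when the 3 left-out libraries were put back. Without sgAAVS1 replicate 1 there were 458 higher calls, without sgAAVS1 replicate 2 there were 486, and without sgERH replicate 3 there were 573 lower ones. Leaving out sgERH replicate 2 gave 986 calls, of which 850 were among the 1134.

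Genes of cell division fell in larger number than those of any other of the 26 lists examined. The 85 mitosis genes tested had a median log2 fold change of −1.09 beside 0.02 for all genes. Of the 85, 49 fell and none rose (57.6% called, beside 8.48% of all genes tested). They included SMC4 and NCAPG, subunits of the condensin complexes that compact chromosomes, AURKA, a kinase of the spindle poles, and TACC3, which holds spindle microtubules together. SMC4 had 886 and 760 CPM in sgAAVS1 and 238, 236 and 256 CPM in sgERH, a difference of −1.76 ± 0.12 on the log2 scale (edgeR adjusted p 3.01e-11). The 3 sgERH libraries lay close together and far below both controls. NCAPG had 122 and 112 CPM in sgAAVS1 against 31.7, 35.8 and 27.7 CPM (log2 fold change −1.88 ± 0.16). AURKA had 126 and 124 CPM against 46.9, 46.5 and 51.2 CPM (−1.37 ± 0.11), and TACC3 had 169 and 198 against 83.1, 63.3 and 74.9 (−1.31 ± 0.12). In each of these genes the groups did not overlap, and the highest sgERH library was under the lower control. For NCAPG a rule that named it required this, and the choice of called genes with the smallest p largely fixed it for the others. Members that were not called included PLK1 at −0.65, AURKB at −0.87 and CCNB1 at −0.90, kinases and a cyclin of mitosis, while CDC25B, a phosphatase that activates the mitotic kinase CDK1, was at −0.05. With all 18 libraries 20 mitosis genes fell, and the calls of AURKA (−1.60) and TACC3 (−1.31) were lost.

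Promoters of 3 mitosis genes that fell are shown with a motif that was chosen after the values were seen. The CHR element, TTTGAA on either strand, is known from promoters of cell cycle genes that peak in mitosis. Sequence came from RefSeq (GRCh38.p14), 250 bases before to 50 after each start, for 27305 genes. An exact match was found in 43 of the 72 tested mitosis genes that had a promoter in the table (59.7%) and in 29 of the 40 that were called (72.5%). It was found in 26.1% of 261 promoters of all genes that fell, 8.76% of 445 promoters of genes that rose, 9.21% of 9138 promoters of genes tested and 15.4% of all promoters. In DNA replication genes it was found in 2 of 58 (3.45%). The promoters below are those of NCAPG (chr4:17810729-17811028, + strand), SMC4 (chr3:160399400-160399699, + strand) and DLGAP5 (chr14:55191536-55191835, − strand), a microtubule-binding protein of the spindle, each 5′ to 3′ along the gene with matches to the CHR letters in capitals.
NCAPG: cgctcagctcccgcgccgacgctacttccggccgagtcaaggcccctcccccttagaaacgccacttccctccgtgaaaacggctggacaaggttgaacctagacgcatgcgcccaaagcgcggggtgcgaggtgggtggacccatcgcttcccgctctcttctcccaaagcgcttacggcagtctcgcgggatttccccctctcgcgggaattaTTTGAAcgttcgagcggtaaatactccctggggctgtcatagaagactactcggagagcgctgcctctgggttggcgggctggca
SMC4: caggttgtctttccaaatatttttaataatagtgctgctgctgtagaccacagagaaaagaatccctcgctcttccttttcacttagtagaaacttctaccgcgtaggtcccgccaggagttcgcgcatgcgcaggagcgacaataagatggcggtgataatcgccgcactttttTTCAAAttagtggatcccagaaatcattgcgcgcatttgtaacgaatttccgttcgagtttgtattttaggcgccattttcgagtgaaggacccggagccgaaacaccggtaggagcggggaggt
DLGAP5: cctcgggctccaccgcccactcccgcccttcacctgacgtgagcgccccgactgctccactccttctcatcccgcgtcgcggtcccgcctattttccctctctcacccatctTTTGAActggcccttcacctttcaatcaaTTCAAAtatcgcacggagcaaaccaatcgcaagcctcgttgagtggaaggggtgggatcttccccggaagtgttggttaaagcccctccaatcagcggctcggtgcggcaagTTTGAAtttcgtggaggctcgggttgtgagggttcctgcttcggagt
NCAPG and SMC4 hold 1 match each and DLGAP5 holds 3. TACC3 and CENPE hold none in this window, and a match in letters is a description and not a site.

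DNA replication and repair genes fell in smaller numbers. The 69 replication genes tested had a median log2 fold change of −0.71. Of the 69, 21 fell and none rose (30.4% called, beside 8.48% of all genes tested). They included MCM3 and MCM7, subunits of the helicase that unwinds DNA, GINS2, a partner of that helicase, RRM1, which makes deoxyribonucleotides, and DUT, which keeps uracil out of DNA. MCM3 had 56.7 and 55.6 CPM in sgAAVS1 and 9.73, 16.4 and 15.3 CPM in sgERH, a difference of −2.03 ± 0.23 on the log2 scale (edgeR adjusted p 8.25e-07). GINS2 had 61.8 and 69.1 CPM against 21.4, 21.7 and 18.9 CPM (−1.66 ± 0.15), and DUT had 195 and 186 against 82.3, 70.7 and 74.8 (−1.32 ± 0.11). In all 3 the sgERH libraries lay below both controls, which for MCM3 a rule that named it required. For GINS2 and DUT the choice of called genes with the smallest p largely fixed it. Among 55 repair and checkpoint genes 11 fell and none rose (20% called, median −0.44). HELLS, a chromatin remodeller, had 191 and 180 CPM against 59.3, 54.1 and 68.8 CPM (−1.61 ± 0.12), and FANCI, of the crosslink repair pathway, had 129 and 138 against 56.2, 49.0 and 61.2 (−1.27 ± 0.12). ATR, the kinase that senses stalled replication forks, fell by 1.02 on the log2 scale. With all 18 libraries 3 repair genes fell.

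Targets of the tumour suppressor p53 moved the other way. The 35 tested had a median log2 fold change of 0.72. Of the 35, 11 rose and none fell (31.4% called, beside 8.48% of all genes tested). GADD45A, a growth-arrest and DNA-damage protein, had 87.4 and 91.0 CPM in sgAAVS1 and 239, 279 and 277 CPM in sgERH, a difference of 1.57 ± 0.12 on the log2 scale (edgeR adjusted p 3.76e-10). SESN2, a stress-induced inhibitor of growth signalling, had 75.3 and 66.2 CPM against 229, 250 and 184 CPM (1.64 ± 0.13). PHLDA3, an inhibitor of AKT signalling, had 39.6 and 38.1 against 125, 115 and 98.8 (1.54 ± 0.14). The groups were far apart in all 3, which the choice of called genes with the smallest p largely fixed. GDF15 (1.90), BBC3 (1.10) and CCNG1 (1.36) also rose, as did PLK2, with no read in either control and 16, 4 and 7 reads in sgERH. The mean CPM of PLK2 in sgERH was 2.91 times a floor of 3 reads per control library. That ratio leaves out the spread among the sgERH libraries. CDKN1A, the p53 target that blocks the cell cycle, had 318 and 324 CPM against 358, 445 and 358 CPM, a log2 fold change of 0.27 that was not called (edgeR adjusted p 0.0608), and MDM2, a ubiquitin ligase, was at 0.94, just short of the fold. With all 18 libraries 6 p53 targets rose.

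Stress genes rose in part. Of 22 genes of the ATF4 response, which cells use under amino acid shortage and other stress, 5 rose and none fell (22.7% called, median 0.35). They were SESN2, DDIT3, ATF4, CEBPB and CHAC1. SESN2 is also counted among the p53 targets, and CEBPB among the other IL-1 and NF-κB targets. DDIT3, a stress-induced transcription factor, had 20.8 and 19.9 CPM in sgAAVS1 and 63.2, 56.8 and 52.6 CPM in sgERH, a difference of 1.5 ± 0.15 on the log2 scale (edgeR adjusted p 4.89e-08). ATF4 itself had 272 and 274 against 564, 733 and 529 (1.16 ± 0.14), with 19.3% of its reads mapping to more than 1 place. Both genes had no overlap between groups, which the choice of called genes with the smallest p largely fixed. CHAC1, which degrades glutathione, rose by 2.56, whereas ASNS, which makes asparagine and is a usual ATF4 target, was at 0.11. The call of ATF4 was lost without sgERH replicate 2, where its log2 fold change was just under 1. HMOX1, which breaks down haem, rose from 43.2 and 51.7 CPM to 216, 260 and 179 CPM (log2 fold change 2.20 ± 0.15, edgeR adjusted p 2.77e-11), as did OSGIN1 (1.97), 2 of 17 NRF2 targets, whose median was −0.12. Of 22 heat shock genes HSPA4L alone fell (−1.82), and of 23 genes of the endoplasmic reticulum unfolded protein response none was called. Calls made up 11.8% of the NRF2 list and 4.55% of the heat shock list, beside 8.48% of all genes tested.

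Of 64 genes tested in the 4 lists of IL-1 and NF-κB targets, inhibitors and survival factors, 12 were called (18.8%, beside 8.48% of all genes tested), 10 higher and 2 lower, and the median log2 fold change was 0.34 beside 0.02. The median of the same genes was 0.54 without cytokine and 0.52 under IFNγ, so the rise was not particular to IL-1β. Without cytokine 4 cytokines, 3 NF-κB subunits or inhibitors, 3 survival factors and 9 other targets rose, beside 795 of all 13370 genes tested. Under IL-1β these numbers were 2, 2, 1 and 5, beside 760, and under IFNγ 3, 3, 2 and 8, beside 700. Falls numbered 0, 1, 1 and 0 both without cytokine and under IL-1β, and 0, 2, 1 and 2 under IFNγ. No gene was called in the test of a difference between IL-1β and no cytokine, given below. In control cells some genes of these lists had more RNA under IL-1β than without cytokine and others did not, given here as means with no test. CXCL1, a neutrophil chemokine, had a mean of 0.391 CPM without cytokine and 28.0 under IL-1β, and NFKBIA had 36.9 and 241 CPM. Of genes that were called, BCL2A1 had 483 and 692 CPM and CSF3 had 0 and 1.73. Control means were lower under IL-1β in IL11 (39.1 and 28.4 CPM), MMP1 (6.3 and 4.7) and MMP3 (2.8 and 1.02), which were also called. Among 29 tested IL-1 signalling components none was called (median 0.08). MYD88, the adaptor, was at −0.16, IRAK1 at −0.34, TRAF6 at 0.07 and IL1RAP at 0.23, and IL1R1 had 1 to 4 reads in each of the 5 libraries and was not tested.

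Among 12 cytokines and chemokines 2 rose and none fell (16.7% called, beside 8.48% of all genes tested, median 0.62). IL11, a cytokine of the IL-6 family, had 27.4 and 29.3 CPM in sgAAVS1 and 147, 116 and 125 CPM in sgERH, a difference of 2.19 ± 0.14 on the log2 scale (edgeR adjusted p 1.18e-11). CSF3, the growth factor of neutrophils, had 1.21 and 2.25 CPM against 11, 12.6 and 9.30 CPM (2.64 ± 0.52, adjusted p 0.000629). In both genes every sgERH library was above the controls, which for CSF3 a rule that named it required. For IL11 the choice of called genes largely fixed it. CSF3 had no read in the 10 libraries of the other treatments used here. The classical chemokines were not called. CXCL1 had 26.8 and 29.1 CPM in sgAAVS1 and 39.4, 35.1 and 55.6 CPM in sgERH (0.63 ± 0.24, edgeR adjusted p 0.0493, under the fold of 2). CXCL3 had 17.6 and 18.2 against 35.7, 30.3 and 38.4 (0.96 ± 0.23), CXCL8 had 14.5 and 15.2 against 18.9, 16.4 and 32.3 (0.60 ± 0.30), and CXCL2 had 3.43 and 4.30 against 5.13, 3.43 and 15.3 (1.04 ± 0.54). The sgERH libraries of CXCL1, CXCL3 and CXCL8 lay above the controls, while those of CXCL2 overlapped them, and in all 4 sgERH replicate 3 was the highest. CCL20, with at most 3.48 CPM, was at −0.58 with overlapping groups, and IL6 had no read. Without sgERH replicate 2, CXCL2 (1.39) and CXCL3 (1.05) passed the call, and 4 of the list rose.

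Of 18 NF-κB subunits and feedback inhibitors 2 rose and 1 fell (16.7% called, beside 8.48% of all genes tested), with a median of 0.17. NFKBIA, which holds NF-κB in the cytoplasm, had 236 and 247 CPM in sgAAVS1 and 263, 138 and 262 CPM in sgERH, a difference of −0.13 ± 0.18 on the log2 scale (edgeR adjusted p 0.667). Only sgERH replicate 2 was below the controls, and without it the log2 fold change was 0.12. TNFAIP3, which removes ubiquitin from signalling proteins, was at −0.25. CYLD, another deubiquitinating enzyme, rose from 29.1 and 32.4 CPM to 70.0, 66.7 and 64.8 CPM (1.13 ± 0.15, adjusted p 2.44e-06), and NFKBIE, an inhibitor related to NFKBIA, from 19.0 and 22.6 to 37.7, 48.0 and 43.2 (1.05 ± 0.17). The call of NFKBIE was lost without sgAAVS1 replicate 1 (0.92) and without sgERH replicate 2 (0.96). N4BP1, an RNA-degrading protein, fell by 1.43, a call lost without sgAAVS1 replicate 2 (−1.18). NFKB1, which encodes a subunit of NF-κB itself, was at −0.55 and RELA at −0.05, neither called.

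BCL2A1, a survival protein of the BCL2 family and a known NF-κB target, fell with the smallest adjusted p of the comparison. It had 699 and 686 CPM in sgAAVS1 and 174, 124 and 178 CPM in sgERH, a difference of −2.13 ± 0.13 on the log2 scale (edgeR adjusted p 1.13e-11). All 3 sgERH libraries lay far under both controls, replicate 2 the lowest, and 5.75% of the gene's reads mapped to more than 1 place. A rule that named BCL2A1 required groups that did not overlap. Among the 12 survival genes GADD45B, a stress protein that also limits cell death, rose (1.35), and BIRC3, an inhibitor of apoptosis, was at 0.14 with overlapping groups. The list's median was 0.24, with 16.7% called. Of 22 other targets 5 rose and none fell (22.7% called, beside 8.48% of all genes tested, median 0.56). They were the secreted proteases MMP1, MMP3 and MMP10 and the transcription factors CEBPB and KLF5. In control cells the means of MMP1 and MMP3 were no higher under IL-1β than without cytokine. MMP1 had 4.84 and 4.51 CPM in sgAAVS1 and 41.0, 37.6 and 31.9 CPM in sgERH (log2 fold change 2.97 ± 0.23, edgeR adjusted p 4.19e-10), and MMP3 had 0.605 and 1.43 against 16.6, 13 and 18.1 (3.94 ± 0.44). Every sgERH library was above both controls, which the rule that named these 2 genes required. With sgAAVS1 replicate 1 left out, 3 of these 5 were still called, without KLF5 (1.35) and MMP10 (1.22). CEBPB was not called without sgERH replicate 3 (0.97).

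**Figure D1:**
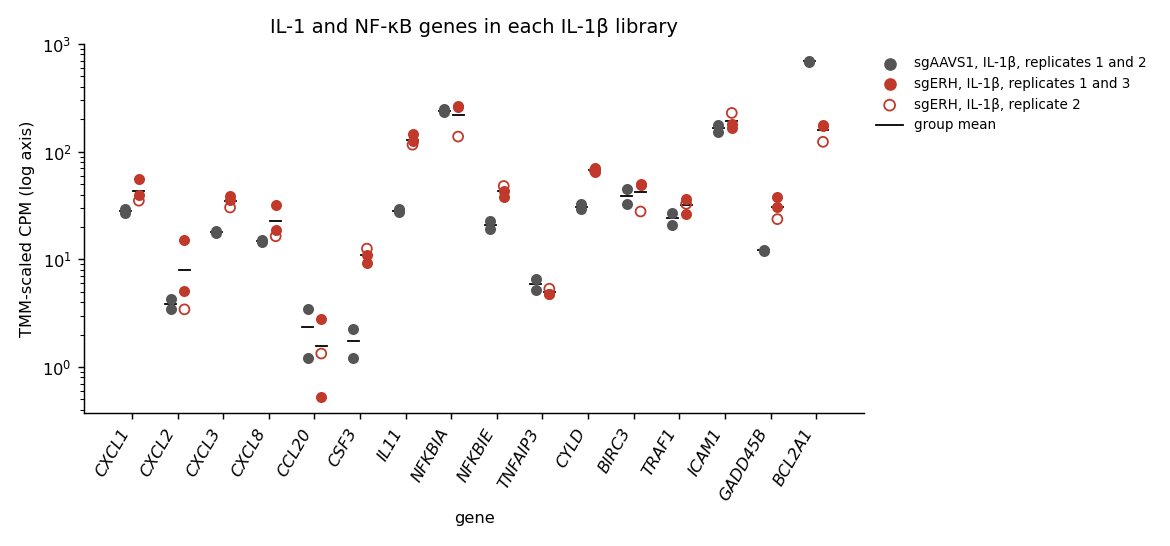
Level of 16 IL-1 and NF-κB genes in each IL-1β library, in TMM-scaled CPM on a log axis, with grey points for sgAAVS1 (n = 2), red points for sgERH (n = 3, replicate 2 open) and a bar at the group mean. IL11 and CSF3 are higher and BCL2A1 is lower in every sgERH library, and NFKBIA, BIRC3, TRAF1 and ICAM1 overlap between the groups. A rule that named CSF3 and BCL2A1 required groups that did not overlap.

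Promoters of IL-1 response genes are shown for comparison, since NF-κB binds to motifs that include the form GGGNNTTTC. A match on either strand was found in 13 of the 49 tested members of the 4 lists that had a promoter in the table (26.5%), in 4.78% of the promoters of genes tested and in 4.73% of all promoters. None of the 8 called members with a promoter there held one. The promoters are those of CXCL1 (chr4:73869143-73869442, + strand) and NFKBIA (chr14:35404700-35404999, − strand), 5′ to 3′ along the gene, with each match in capitals, and neither gene was called. IL11 and BCL2A1 hold no match in this window, and neither do CXCL8 and ICAM1. A missing match to these letters does not show that a site is absent.
CXCL1: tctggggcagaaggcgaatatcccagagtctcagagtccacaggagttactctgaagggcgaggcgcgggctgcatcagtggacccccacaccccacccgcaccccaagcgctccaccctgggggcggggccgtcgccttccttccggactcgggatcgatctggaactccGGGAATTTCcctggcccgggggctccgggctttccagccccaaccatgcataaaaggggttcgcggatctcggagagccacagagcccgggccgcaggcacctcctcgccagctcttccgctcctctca
NFKBIA: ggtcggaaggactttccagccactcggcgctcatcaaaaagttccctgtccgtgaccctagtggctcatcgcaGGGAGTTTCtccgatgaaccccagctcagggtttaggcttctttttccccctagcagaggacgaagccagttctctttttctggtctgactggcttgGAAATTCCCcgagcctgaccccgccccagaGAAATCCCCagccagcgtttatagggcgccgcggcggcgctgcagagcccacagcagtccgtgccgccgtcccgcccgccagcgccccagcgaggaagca
The motif TGATGNAAT, of the kind that binds ATF4 with its partners, was found in none of the 19 tested genes of the ATF4 list that had a promoter in the table, in 0.46% of the promoters of genes tested and in 1.02% of all promoters.

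Other immediate-early and antiviral genes rose in part. Of 35 AP-1 and immediate-early genes 6 rose (JUND, NR4A2, ATF3, BTG2, FOSL2 and ID2) and none fell. That was 17.1% called, beside 8.48% of all genes tested. JUND, an AP-1 subunit, had 76.3 and 77.9 CPM in sgAAVS1 and 230, 271 and 198 CPM in sgERH, a difference of 1.60 ± 0.13 on the log2 scale (edgeR adjusted p 9.04e-10). JUN was at −0.33 and EGR1 at 0.005, not called. JUN had 704 and 771 CPM in sgAAVS1 and 673, 399 and 691 CPM in sgERH, with replicate 2 far the lowest. Of 25 type I antiviral genes 6 rose (IFI6, HERC6, STAT2, SAMD9, SAMD9L and IFIT3) and none fell (24% called, median 0.36). IFI6, an interferon-induced membrane protein, had 5.05 and 8.40 CPM against 26.5, 29.7 and 26.7 CPM (2.04 ± 0.24). The call of STAT2 was lost without sgERH replicate 2 (0.90) and without sgAAVS1 replicate 2 (0.89).

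The genes of RNA metabolism and energy were mostly below the fold. Of 52 exon junction, export and splicing factors 2 rose (UPF3B, SMG9, both of nonsense-mediated decay) and 2 fell (SRSF2 and SRSF3, splicing factors), with a median of −0.18. Small nucleolar RNA host genes, whose introns hold small nucleolar RNAs and whose spliced RNA is often degraded, rose in 5 of 23 cases (EPB41L4A-AS1, GAS5, SNHG5, SNHG7 and SNHG25), with 1 fall (SNHG3, −1.0, a call lost without sgAAVS1 replicate 2 at −0.98 and without sgERH replicate 2 at −0.90). GAS5 had 282 and 294 CPM in sgAAVS1 and 628, 645 and 627 CPM in sgERH, a difference of 1.14 ± 0.11 on the log2 scale (edgeR adjusted p 1.29e-08). SNHG25 was not called without sgERH replicate 2 (0.90). Of 21 glycolysis genes 2 fell (median −0.60), PFKL and LDHA, with 31.3% of LDHA reads multimapping, and of 70 nuclear-encoded respiratory chain genes none was called, although 64 had a log2 fold change below 0 and the median was −0.36. In 20 housekeeping genes TUBA1B fell and the median was −0.47. Of 32 genes of sterol and fatty acid synthesis MVK and MVD rose and FADS2 fell (median 0.07), of 36 aminoacyl-tRNA synthetase symbols IARS fell (28.4% multimapping, median −0.05), and the 1 tested germline gene was not called. Calls made up 26.1% of the host genes, 5% of the housekeeping genes and 2.78% of the synthetase symbols. They made up 9.52% of glycolysis, 9.38% of sterol and fatty acid synthesis and 7.69% of the splicing and export list. These last 3 were near the 8.48% of all genes tested. CDX2, an intestinal transcription factor and 1 of 4 tested colon markers, rose from 6.05 and 6.15 CPM to 17.2, 11.4 and 12.5 CPM (1.16 ± 0.28, edgeR adjusted p 0.00278), a call lost without sgERH replicate 1 (0.97). The share of reads in mitochondrial genes and their nuclear copies was 7.10% and 7.68% in sgAAVS1 and 8.66% to 9.95% in sgERH, and that in cytosolic ribosomal protein genes was 13.2% in both sgAAVS1 libraries and 11.8% to 12% in sgERH.

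Long and small non-coding RNAs rose more often than they fell. By GENCODE 44 gene type, 60 of 373 lncRNAs rose (16.1%) and 6 fell. Of 129 small nuclear, nucleolar and Cajal body RNAs 36 rose (27.9%) and none fell, whereas 509 of 10728 protein-coding genes rose (4.74%) and 297 fell (2.77%). Of 629 pseudogenes 32 rose and 37 fell. A further 1440 tested symbols were not found in GENCODE 44, of which 104 rose (7.22%) and 32 fell. Their type is not known here, so the lncRNA share covers only symbols that matched. The small nuclear, nucleolar and Cajal body RNAs carry no poly(A) tail in their mature form. All reads of RNU1-2 and none of SNORD46 mapped to more than 1 place, so the 36 may share reads. Without multimapping reads 646 genes of all types were called higher, beside 760, and this class was not counted apart. The highest fold change among genes that the naming rule allowed was in RPPH1, the RNA of ribonuclease P, with 0.404 and 0.615 CPM in sgAAVS1 and 18, 25.7 and 12.6 CPM in sgERH (log2 fold change 5.14 ± 0.55, edgeR adjusted p 1.47e-07), from 2 and 3 reads in the controls. Next were MYCT1 (4.77), with 1 and 3 control reads, and SNORD46 (4.37), a small nucleolar RNA with 1 and 5. Protein-coding genes that fell had a median span of 45.3 kb and 11 exons in the canonical transcript, those that rose 23.1 kb and 7 exons, and all tested 33.1 kb and 9.

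Further genes were picked after their values were seen, as some of the smallest p-values. CD274, which encodes the immune checkpoint ligand PD-L1, had 616 and 637 CPM in sgAAVS1 and 289, 286 and 300.2 CPM in sgERH, a difference of −1.10 ± 0.09 on the log2 scale (edgeR adjusted p 2.01e-09). The metallothionein MT1E fell from 1373 and 1263 CPM to 485, 402 and 581 CPM (−1.43 ± 0.12). ABL2, a tyrosine kinase, rose from 81.8 and 84.0 to 216, 221 and 214 (1.39 ± 0.11), and RCAN1, an inhibitor of calcineurin, from 30.1 and 35.1 to 109, 110 and 102 (1.72 ± 0.14). None of the 4 had overlapping groups, which their choice by small p largely fixed.

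**Figure D2:**
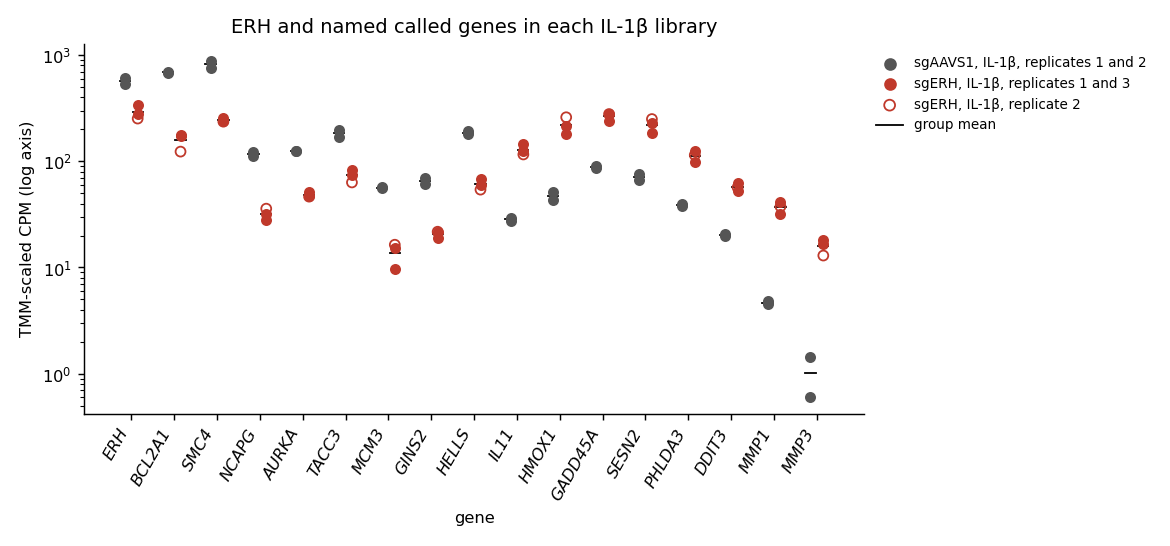
Level of ERH and 16 named genes in each IL-1β library, in TMM-scaled CPM on a log axis, with grey points for sgAAVS1 (n = 2), red points for sgERH (n = 3, replicate 2 open) and a bar at the group mean. In each gene the sgERH points lie on one side of the sgAAVS1 points, which the choice of called genes largely fixed.

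The effect of ERH targeting was also compared with that in cells without cytokine, by an interaction term in the same edgeR fit over libraries that the comparisons do not share. No gene was called (0%). At an unadjusted p under 0.05 there were 1487 genes, the smallest adjusted p was 0.204, and DESeq2 called 1. Of the 64 genes in the 4 IL-1 and NF-κB lists, 43 had an interaction below 0 (67.2%, beside 49.0% of all genes tested), with a median of −0.31 beside 0.01. In NFKBIA the log2 fold change of sgERH over sgAAVS1 was 1.26 without cytokine and −0.13 under IL-1β (difference −1.38 ± 0.28, adjusted p 0.204). In BIRC3 the effects were 1.86 and 0.14 (difference −1.72 ± 0.43, adjusted p 0.288), and in TRAF1, a signalling adaptor, 2.00 and 0.41 (−1.59 ± 0.45, adjusted p 0.295). In CXCL1 they were 2.32 and 0.63 (−1.69 ± 0.73, adjusted p 0.408), between a control mean of 0.391 CPM without cytokine and one of 28.0 CPM under IL-1β. These differences did not pass the test. IL11 (2.02 and 2.19), MMP1 (2.37 and 2.97) and BCL2A1 (−2.06 and −2.13) had values of the same sign in both conditions. Without sgERH replicate 3 there were 140 calls and without sgERH replicate 2 there were 5, and with no filter on low counts 70.

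**Figure D3:**
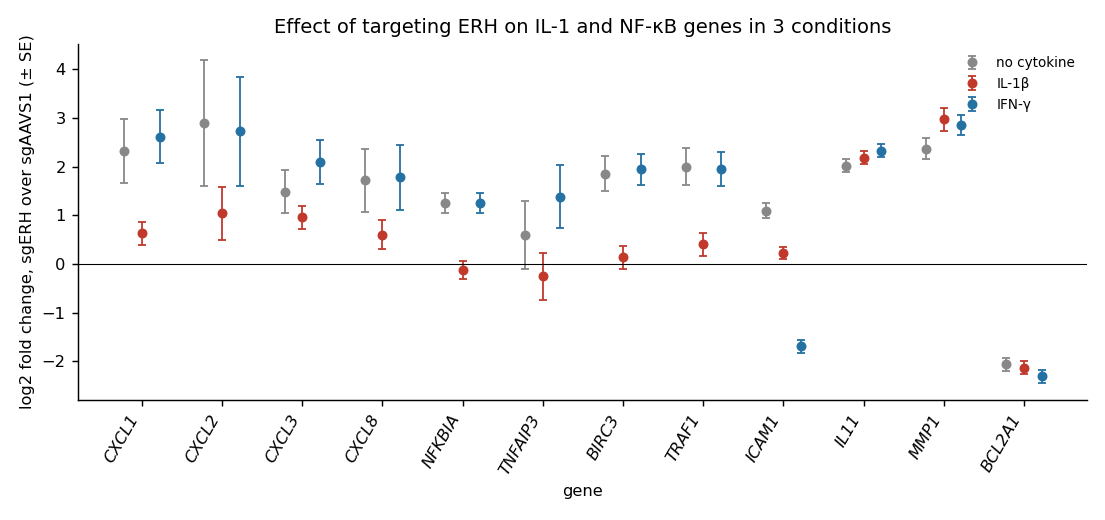
Log2 fold change of sgERH over sgAAVS1 with its standard error for 12 IL-1 and NF-κB genes in cells without cytokine (grey), with IL-1β (red) and with IFNγ (blue). NFKBIA, BIRC3 and TRAF1 lie between −0.13 and 0.41 under IL-1β and above 1 in both other conditions, while IL11 runs from 2.02 to 2.33 and BCL2A1 from −2.31 to −2.06 over the 3.

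Against IFNγ, 23 genes differed by the same adjusted p and fold (0.172%), 22 with a higher and 1 with a lower log2 fold change under IL-1β, and 814 had an unadjusted p under 0.05. IRF1, which switches on further interferon genes, had a log2 fold change of 0.77 under IL-1β and −2.81 under IFNγ, a difference of 3.58 ± 0.17 (edgeR adjusted p 4.27e-14). Its mean was 30.4 CPM in sgAAVS1 and 51.9 CPM in sgERH under IL-1β, and 825 and 118 CPM under IFNγ. ICAM1, an adhesion molecule that both cytokines raise, was at 0.22 under IL-1β and −1.69 under IFNγ (difference 1.91 ± 0.18). APOL2, an interferon-induced apolipoprotein, rose under IL-1β (1.42) and was at −0.72 under IFNγ. Without cytokine the log2 fold changes were 0.30 in IRF1, 1.10 in ICAM1 and 1.82 in APOL2. The rise of APOL2 was thus not particular to IL-1β. NFKBIA was the 1 gene with a lower value under IL-1β (difference −1.38 ± 0.27, adjusted p 0.0492), a call lost when sgAAVS1 replicate 1 (−1.41) or 2 (−1.35) under IL-1β, or any library used under IFNγ (−1.47 to −1.33), was left out, with adjusted p from 0.0593 to 0.272. It was also lost with all 18 libraries (−0.70, adjusted p 1), with only the compared groups in the fit (adjusted p 0.283) and without multimapping reads (adjusted p 0.052). JAK2, a kinase of the IFNγ receptor, had 38.8 and 49.0 CPM in sgAAVS1 and 43.3, 56.4 and 56.2 CPM in sgERH under IL-1β (0.24 ± 0.17, edgeR adjusted p 0.318). The study reports that ERH targeting lowered baseline JAK2 mRNA, by its own QuantSeq analysis and by RT-qPCR. Why the values here differ from that was not tested. With all 18 libraries 2 genes differed, and without one or another library 11 to 62, the fewest without sgAAVS1 replicate 1 and the most without sgERH replicate 3 under IL-1β. The other libraries whose absence moved the count were sgAAVS1 replicate 2 under IL-1β (14) and sgERH replicates 1 (13) and 3 (12) under IFNγ.

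**Figure D4:**
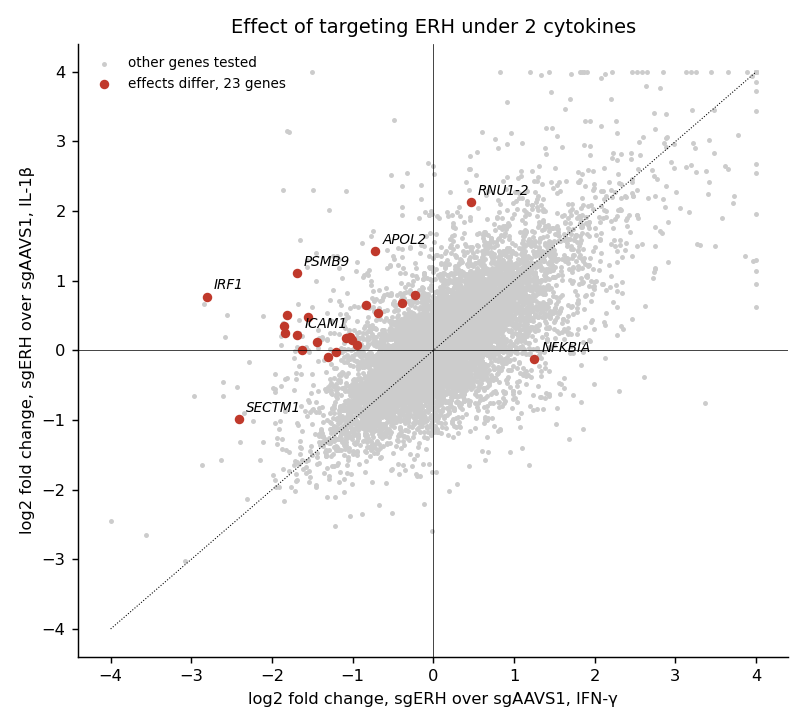
Log2 fold change of sgERH over sgAAVS1 under IL-1β (y axis) against that under IFNγ (x axis) for 13370 genes, with values beyond 4 drawn at 4 and the 23 genes whose effects differed in red. IRF1 (0.77 against −2.81) lies farthest above the dotted line of equal effects among the red points, and NFKBIA lies below it.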

How the data were processed

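The labels describe 18 libraries in 6 groups of 3 (sgAAVS1 or sgERH, each without cytokine, with IFNγ or with IL-1β), and groups were taken from them. Per the labels and the study's methods, the authors trimmed reads (Trim Galore 0.6.2, with FastQC 0.11.8 for quality), built 3′-end windows with 3-GAmES from RefSeq and Ensembl models of GRCh38, counted reads with SlamDunk and collapsed windows per gene. The deposited values used are whole-number read counts, with the authors' count of multimapping reads, not normalized. Counts at 3′ ends do not show splicing, and reads shared by similar genes stay uncertain. The floor of 3 reads covers counting error only, since no molecular identifiers are given, whereas standard errors come from the fit over replicate libraries.

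Counts of 39859 gene symbols went into edgeR 4.0.16 under R 4.3.3 (TMM, filterByExpr, robust quasi-likelihood F test, Benjamini-Hochberg adjustment) in 1 model of the 6 groups over the 15 libraries that the study kept, which left 13370 genes with a biological coefficient of variation of 12.6%. Replicate pairs of the compared libraries differed by more than sampling noise. DESeq2 1.42.0, other size factors, no filter, all 18 libraries, only the compared groups, no multimapping reads, a replicate block and leaving out each replicate were tried. The code was tested on simulated data. Positions are from GENCODE 44 and promoters from RefSeq.

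Members, lists and tests were chosen with earlier results of these data known. Named genes were ERH, the called genes with the 15 largest rises and 15 largest falls among those of at least 10 CPM with at most 20% multimapping reads and groups that did not overlap, the called members of the IL-1 and NF-κB lists, the 4 called members of smallest p in each direction of the other lists, fixed IL-1 pathway genes, and genes of the interaction terms. Other named genes, the promoter motifs and the gene-type counts were chosen after values were seen. The NF-κB motif was first searched with 1 more base and then shortened, for reasons of format and after its result was known. The shorter form matches more promoters, in the lists and in all genes, and no called member of the lists held either form. The files' T-to-C conversion columns were not used here. Some genes are not reported here by name, but stay in the fits and counts.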

Additional observations from a re-analysis of the deposited data

Results flagged for a closer look

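The log2 effect of targeting ERH differed between IL-1β and IFNγ in 23 genes, by the interaction term of the edgeR fit with an adjusted p of at most 0.05 and a difference of at least 1. The comparisons share no libraries. Differences are given for 21 of them, as the effect under IL-1β minus that under IFNγ. They were 3.58 in IRF1, 2.81 in PSMB9, 2.21 in DTX3L, 2.14 in APOL2, 2.08 in NLRC5, 2.03 in TRIM69 and 1.91 in ICAM1. They were 1.67 in RNU1-2, 1.63 in TMEM158, 1.57 in GBP3, 1.48 in TAP1, 1.43 in SECTM1, 1.26 in UBE2L6, 1.22 in WARS and in IRF2, and 1.20 in TRIM25. They were 1.18 in PARP14, 1.16 in WARS1, 1.07 in TRIM56 and 1.02 in HLA-E, and −1.38 in NFKBIA. All reads of PSMB9, TRIM69, RNU1-2 and TAP1 and 92.6% of those of HLA-E mapped to more than 1 place. WARS and WARS1 are an older and a current symbol of 1 gene and were counted apart by the authors. In the test of IL-1β against no cytokine, no gene was called.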

How the results depend on the processing

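The main count of 1134 calls was 994 with DESeq2 and 771 to 1353 when a library was left out (458 to 780 higher, 299 to 573 lower). It moved to 394 (280 higher, 114 lower) with all 18 libraries and to 3539 (1781 and 1758) with no fold threshold. The difference from cells without cytokine was 0 calls, 1 with DESeq2, 70 with no filter on low counts and 0 to 140 without a library. The difference from IFNγ was 23 calls, 2 with all 18 libraries, 15 without multimapping reads and 11 to 62 without a library. For ERH the log2 fold change was −1.01 with no filter and ran from −1.11 to −0.89 without a library. The cause of these moves was not tested.

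Whether the replicate numbers pair the samples was not settled. The correlation of deviations of same-numbered sgAAVS1 and sgERH libraries under IL-1β was −0.160 for number 1 and −0.112 for number 2. With 2 controls the deviations of 1 mirror those of the other, so these values cannot decide it. Same-numbered pairs ran both ways elsewhere. Against sgAAVS1 under IFNγ, sgERH without cytokine gave 0.386 for number 2, and sgERH under IL-1β gave −0.098 for number 1. With a replicate block 1148 genes were called, of which 1035 were among the 1134, and ERH was at −1.01, past the threshold.

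Genes that were not called changed sign. With 1 library left out in turn, the log2 fold change ran from −1.15 to 0.36 in CCL20, −0.27 to 0.12 in NFKBIA, −0.08 to 0.38 in BIRC3, −0.21 to 0.43 in IL1RAP, −0.08 to 0.20 in TRAF6, −0.41 to 0.10 in MYD88 and −0.03 to 0.24 in WARS1. With all 18 libraries it was 0.02 in TNFAIP3 and −0.13 in WARS1. With all 18 libraries 37 of the 83 called genes examined singly lost their call. Besides AURKA and TACC3 those named above include NFKBIE, N4BP1, GADD45B, CEBPB, KLF5, MMP10, BTG2, RRM1, CCNG1, DDIT3 (1.09), ATF4, HSPA4L, CENPE, IARS, MVD, FADS2, SMG9, SRSF2, SRSF3, GAS5 (0.73), SNHG3, SNHG7, SNHG25, PFKL, TUBA1B and CDX2. Of the 83, MVD, SRSF3, SNHG3 and PSMB9 lost it with only the compared groups, and SRSF3, SNHG3 and TUBA1B without multimapping reads. Further calls lost with a library left out included RRM1 (−0.99), BTG2 (0.85) and MVD (0.78) without sgAAVS1 replicate 1. Without sgAAVS1 replicate 2 they included ATF3 (1.33) and IARS (−0.95). Without sgERH replicate 1 they included PFKL (−0.95) and SRSF3 (−0.97), and without sgERH replicate 2 SMG9 (0.93) and TUBA1B (−0.99). Of all values examined singly, differences from IFNγ among them, 6, 11 and 4 lost their call without sgERH replicates 1, 2 and 3 under IL-1β. Not all of these are named here.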
